A study of Mus musculus with 8 samples.

Results

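The genes examined were 41 genes of DNA break and base excision repair, picked by symbol and known role from the 24062 rows of the deposited count table. All 41 were found, and all 41 were among the 13197 genes that passed the filter on low counts, which asked for enough reads in at least as many libraries as the smallest group holds. Marrow of C57BL/6 mice aged 2 months was cultured for 3 days in 40 ng/mL M-CSF to give immature myeloid cells (IMCs), and their total RNA was sequenced. There were 4 groups of 2 libraries: PARP1 WT (genotype PARP1 flox/flox), PARP1CKO (PARP1 flox/flox+lysozyme-Cre), PARP2 WT (PARP2 flox/flox) and PARP2CKO (PARP2 flox/flox+lysozyme-Cre). Every mouse thus carried a floxed PARP gene, and no group carried lysozyme-Cre without one. Lysozyme-Cre is driven by a gene of myeloid cells, so a cell of the culture that has not switched that gene on keeps its floxed alleles. The controls of a line were Cre-free littermates, and the floxed lines are separate stocks of mice, so line, litter and preparation cannot be told apart when PARP2 WT is set against PARP1 WT.

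PARP1 and PARP2 are the enzymes that sense DNA strand breaks and build chains of poly-ADP-ribose on themselves and on nearby chromatin. The chains call in the scaffold XRCC1 with its ligase and end-processing partners, which finish base excision repair and single-strand break repair. Double-strand breaks are rejoined either by end joining, which needs the Ku proteins and a ligase, or by homologous recombination, which copies the sister chromatid and is used by dividing cells. Cells with faulty homologous recombination are known to be sensitive to PARP inhibitors, which is the reason these drugs are given in BRCA-mutated cancers. The comparisons below ask whether loss of either PARP in IMCs came with a change in the transcripts of these repair genes.

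The libraries held from 37852450 to 61845125 counts in genes, of which the 41 members took between 0.127% and 0.142%. The lowest count of any member in any library was 89 and the highest 6133. Levels are given as CPM, the read count relative to the TMM-scaled size of its library, and different genes are compared only as CPM per kilobase of annotated exon. The annotated length need not be that of the transcript present, and ranks and ratios between genes depend on it. Atr, for example, has 23629 annotated exon bases and Atm 10338, at mean levels of 34.0 and 51.2 CPM. The targeted genes followed the labels: Parp1 went from 202 and 211 CPM in PARP1 WT to 63.2 and 59.1 in PARP1CKO, and Parp2 went from 48.2 and 48.3 to 25.7 and 25.6 CPM within the PARP2 line. The gene not targeted in a line was also read: Parp2 lay between 37.0 and 40.8 CPM in the PARP1 line, while Parp1 had 251 and 155 CPM in the PARP2 controls and 263 and 264 CPM in PARP2CKO, with PARP2 WT replicate 2 below the other 3 libraries of that line. Of the defining myeloid genes, Itgam (CD11b) lay between 881 and 1035 CPM and Csf1r, the M-CSF receptor, between 1134 and 1273 CPM. Cd68 lay between 1546 and 1957 CPM and Spi1 between 182 and 217 CPM. Lyz2, the lysozyme gene whose promoter drives the Cre, was less steady. It had 5712 and 6387 CPM in PARP1 WT, 3495 and 4334 in PARP1CKO, 9725 and 10804 in the PARP2 controls and 6742 and 5747 in PARP2CKO. Deletion and control did not overlap in either line. Only the deleted groups carried the Cre, so for Lyz2 the Cre itself and the loss of a PARP cannot be told apart. The sum of 8 myeloid markers ran from 8218 to 15526 CPM over the libraries, mostly through Lyz2, and that of 7 neutrophil markers from 2520 to 3259 CPM. Summed over 20 proliferation markers, the level lay between 2769 and 3091 CPM in all libraries, with all 20 above the filter. Markers of T and NK cells summed to at most 5.99 CPM, erythroid markers to at most 8.01 and markers of stroma and endothelium to at most 15.7. In total RNA of a mixed culture, fewer cells of a type and less RNA per cell cannot be told apart.

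All 41 members were transcribed in every library, over a wide range of levels. Apex1, the main nuclease that cuts the DNA backbone at sites that have lost their base, had the highest level, with a mean of 52.8 CPM per kilobase. It was followed by Fen1, Lig1 and H2afx at 26.1, 23.1 and 23.1 CPM per kilobase. Fen1 was above Lig1 in every library, while the range of H2afx, from 20.8 to 25.9, overlapped both. Mdc1, Msh6, Rad50, Nbn and Chek2 came next, between 10.4 and 14.0 CPM per kilobase. At the low end, Rnf8, Brca2, Nthl1 and Xrcc5 had 1.27, 1.21, 1.03 and 0.852 CPM per kilobase.

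**Figure D1:**
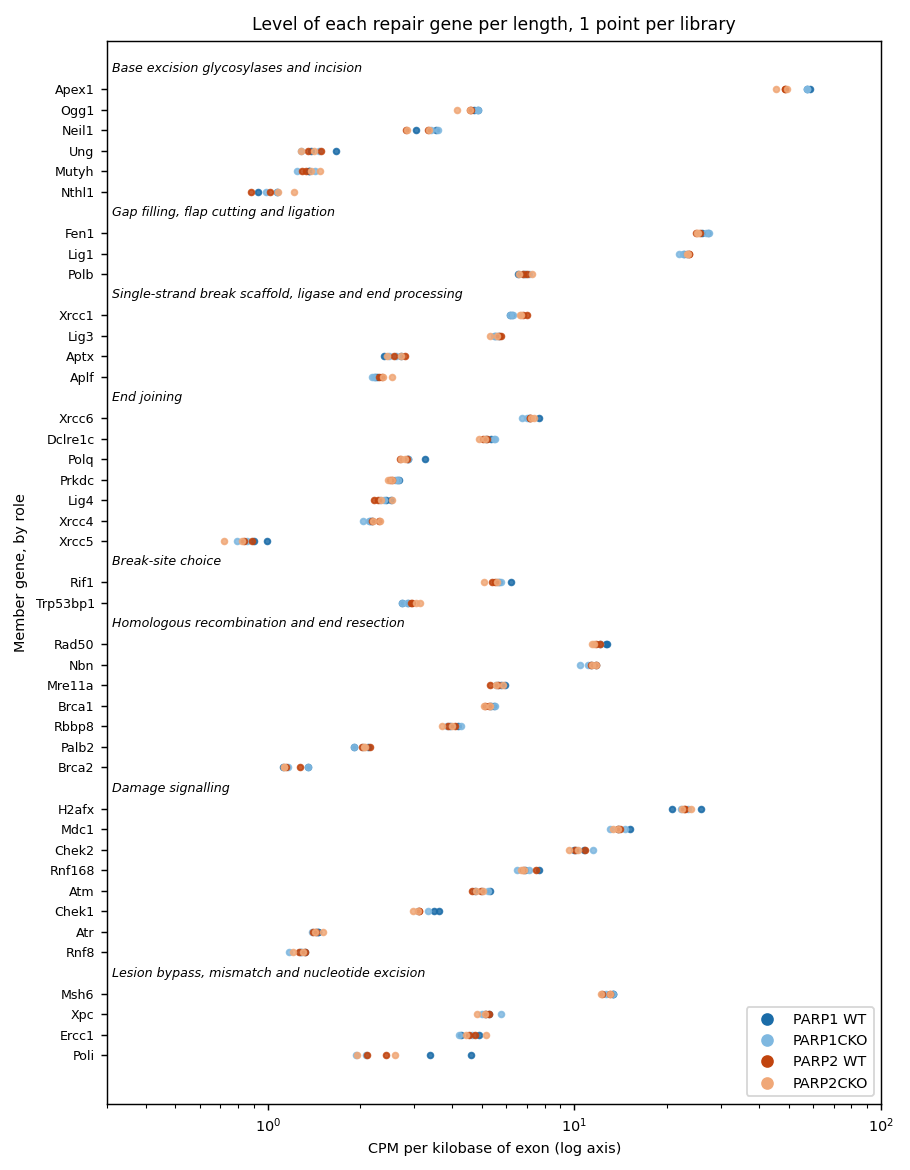
Level of each member in CPM per kilobase of exon on a log axis, 1 point per library, coloured by group and ordered by level within each role. The spread between members, from 0.852 for Xrcc5 to 52.8 for Apex1, was far wider than the spread of any member over the 8 libraries, in which only Poli had a highest value over 1.5 times its lowest.

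Among the glycosylases, which cut damaged bases from DNA, Ogg1 removes oxidised guanine and had 10.3 and 10.6 CPM in PARP1 WT, 10.5 and 10.6 in PARP1CKO, 10.1 and 10.0 in the PARP2 controls and 10.0 and 9.05 in PARP2CKO. The groups of each deletion overlapped. Nthl1, which removes oxidised pyrimidines, had 2.53 and 2.92 CPM in PARP1 WT, 2.91 and 2.68 in PARP1CKO, 2.77 and 2.40 in the PARP2 controls and 3.32 and 2.94 in PARP2CKO. Both PARP2CKO libraries were above both PARP2 WT libraries, by a log2 fold change of 0.28 with a 95% interval from -0.06 to 0.61. Ung, Neil1 and Mutyh, the glycosylases for uracil, for oxidised bases and for adenine opposite oxidised guanine, had between 3.25 and 9.13 CPM, and the groups of both deletions overlapped except for Mutyh in the PARP2 pair. Ogg1 lay 4.53 times above Nthl1 per kilobase and Apex1 11.4 times above Ogg1 on average over the 8 libraries.

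The gap left after incision is filled by DNA polymerase beta (Polb), trimmed by the flap nuclease Fen1 and sealed by DNA ligase I (Lig1). Polb had 25.7 and 27.3 CPM in PARP1 WT, 26.9 and 28.0 in PARP1CKO, 26.9 and 27.7 in the PARP2 controls and 25.9 and 28.6 in PARP2CKO. For Fen1 the values were 65.8 and 63.3 CPM in PARP1 WT, 66.6 and 65.1 in PARP1CKO, 60.3 and 62.1 in the PARP2 controls and 60.6 and 61.4 in PARP2CKO. Neither gene separated a deletion from its control, and the 95% intervals for Fen1 ran from -0.06 to 0.12 for PARP1CKO and from -0.09 to 0.09 for PARP2CKO on the log2 scale. Lig1, which also joins Okazaki fragments in replicating cells, had the narrowest spread of all members, with a highest library 1.08 times its lowest. Its deleted libraries were nonetheless below both controls in each line, by log2 fold changes of -0.05 (95% interval -0.14 to 0.03) in PARP1CKO and -0.01 (-0.10 to 0.08) in PARP2CKO. It lay between 93.3 and 101 CPM and was 4.14 times as abundant per kilobase as Lig3 and 9.70 times as abundant as Lig4.

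Xrcc1, Lig3, Polb, Aptx and Aplf act in the repair complex that poly-ADP-ribose recruits, and so stand closest to the deleted enzymes. The scaffold Xrcc1 had 35.9 and 36.6 CPM in PARP1 WT and 36.1 and 36.9 CPM in PARP1CKO, so that these groups overlapped. In the PARP2 line it had 40.7 and 39.5 CPM without Cre against 38.8 and 39.1 CPM with it, so both deleted libraries were below both controls, by a log2 fold change of -0.04 (95% interval -0.14 to 0.05). Its ligase partner Lig3 had 41.4 and 40.0 CPM in PARP1 WT, 39.8 and 40.7 in PARP1CKO, 42.0 and 41.4 in the PARP2 controls and 38.7 and 40.8 in PARP2CKO. Xrcc1 and Lig3 are known to work as a pair, and their level per kilobase was nearly equal, with an Xrcc1 to Lig3 ratio between 1.08 and 1.25 over the 8 libraries. Aptx, which clears ligation ends blocked by adenylate, had 16.1 and 14.1 CPM in PARP1 WT, 14.7 and 15.5 in PARP1CKO, 16.5 and 15.2 in the PARP2 controls and 16.0 and 14.5 in PARP2CKO. Aplf, a poly-ADP-ribose binding histone chaperone, had 13.3 and 13.5 CPM in PARP1 WT, 12.9 and 13.2 in PARP1CKO, 13.9 and 13.6 in the PARP2 controls and 15.0 and 14.1 in PARP2CKO. Like Xrcc1, Lig3 was below both controls in both PARP2CKO libraries. Aplf was above both controls in PARP2CKO and below both in PARP1CKO. Of Xrcc1, Lig3, Aptx and Aplf, 3 thus did not overlap in the PARP2 line, 1 higher and 2 lower, against 37.2% of all genes. In the PARP1 line 1 did not, against 41.2%. Over Xrcc1, Lig3, Polb, Aptx and Aplf the log2 fold changes lay between -0.03 and 0.05 in PARP1CKO and between -0.07 and 0.08 in PARP2CKO, and none passed the test.

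End joining starts when the Ku heterodimer of XRCC6 (Ku70) and XRCC5 (Ku80) grips a broken end. Xrcc6 had 34.3 and 31.9 CPM in PARP1 WT, 30.3 and 31.5 in PARP1CKO, 32.0 and 32.0 in the PARP2 controls and 32.4 and 33.0 in PARP2CKO. Xrcc5 had 2.53 and 2.30 CPM in PARP1 WT, 2.02 and 2.19 in PARP1CKO, 2.14 and 2.27 in the PARP2 controls and 2.11 and 1.84 in PARP2CKO. The Ku subunits act as a pair, yet the transcript of Xrcc6 was 8.49 times as abundant per kilobase as that of Xrcc5, with a range from 7.74 to 10.2 over the libraries. Prkdc, the catalytic subunit of the DNA-dependent protein kinase that binds Ku, had 34.9 and 35.3 CPM in PARP1 WT, 35.0 and 34.3 in PARP1CKO, 33.6 and 33.0 in the PARP2 controls and 33.5 and 32.6 in PARP2CKO. Dclre1c (Artemis), the nuclease that this kinase activates, had 47.9 and 49.6 CPM in PARP1 WT, 51.5 and 50.9 in PARP1CKO, 46.9 and 48.5 in the PARP2 controls and 45.7 and 47.5 in PARP2CKO. It was the 1 member whose PARP1CKO libraries were both above both PARP1 WT libraries, by a log2 fold change of 0.07 (95% interval -0.03 to 0.17).

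Lig4, the ligase of end joining, had 12.6 and 13.1 CPM in PARP1 WT, 12.1 and 12.5 in PARP1CKO, 11.9 and 11.5 in the PARP2 controls and 12.2 and 13.3 in PARP2CKO. Its log2 fold change was -0.07 in PARP1CKO and 0.12 in PARP2CKO, and the difference between these, 0.19 with a 95% interval from -0.04 to 0.42, did not pass the test. Xrcc4, its partner protein, lay between 8.65 and 9.82 CPM and had a nearly equal level per kilobase, with a Lig4 to Xrcc4 ratio between 0.998 and 1.17. Polq, the polymerase of the alternative end joining route in which PARP1 also takes part, had 27.8 and 31.6 CPM in PARP1 WT, 27.9 and 27.7 in PARP1CKO, 26.1 and 27.7 in the PARP2 controls and 26.4 and 27.1 in PARP2CKO. For Polq PARP1 WT replicate 2 stood above the other 7 libraries.

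Trp53bp1 (53BP1) and Rif1 protect broken ends from resection and so steer repair toward end joining. Trp53bp1 had 38.7 and 40.5 CPM in PARP1 WT, 40.2 and 38.9 in PARP1CKO, 41.6 and 41.9 in the PARP2 controls and 44.4 and 43.2 in PARP2CKO. Its log2 fold change in PARP2CKO was 0.07 (95% interval -0.03 to 0.17), with both PARP2CKO libraries above both controls. Rif1 lay between 53.3 and 65.1 CPM, was 1.93 times as abundant per kilobase as Trp53bp1, and overlapped between deletion and control in both pairs.

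Homologous recombination begins with the MRE11, RAD50 and NBN complex, which binds and trims the ends. Rad50 had 68.5 and 68.3 CPM in PARP1 WT, 65.1 and 65.3 in PARP1CKO, 63.4 and 65.0 in the PARP2 controls and 61.4 and 62.4 in PARP2CKO. Mre11a had 34.1 and 35.1 CPM in PARP1 WT, 33.4 and 32.8 in PARP1CKO, 33.4 and 31.5 in the PARP2 controls and 32.9 and 34.8 in PARP2CKO. Rad50 was below control in both libraries of both deletions, with log2 fold changes of -0.07 in PARP1CKO (95% interval -0.15 to 0.02) and -0.05 in PARP2CKO (-0.14 to 0.03). Nbn had 29.7 and 28.7 CPM in PARP1 WT, 26.4 and 28.1 in PARP1CKO, 29.8 and 28.7 in the PARP2 controls and 28.9 and 29.8 in PARP2CKO. Per kilobase Rad50 and Nbn were each about the same, with a ratio between 0.985 and 1.16, and Mre11a was lower, with Rad50 2.14 times and Nbn 2.01 times as abundant.

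Brca1, which promotes resection of the ends, had 45.6 and 46.8 CPM in PARP1 WT, 47.0 and 45.4 in PARP1CKO, 45.0 and 43.7 in the PARP2 controls and 45.4 and 43.3 in PARP2CKO. Brca2, which acts after resection, had 15.3 and 18.5 CPM in PARP1 WT, 18.4 and 15.9 in PARP1CKO, 15.7 and 17.4 in the PARP2 controls and 15.5 and 15.4 in PARP2CKO. The log2 fold change of Brca1 was 0.00 in both deletions, with 95% intervals from -0.10 to 0.10 in each. That of Brca2 was 0.02 in PARP1CKO (-0.22 to 0.26) and -0.10 in PARP2CKO (-0.34 to 0.14). Brca1 was 4.40 times as abundant per kilobase as Brca2, and Palb2, which joins both proteins, was 1.69 times as abundant as Brca2. Palb2 lay between 14.0 and 15.8 CPM and Rbbp8 (CtIP), which starts resection, between 46.3 and 53.4 CPM, with overlap between deletion and control in both pairs.

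The kinases Atm and Atr signal double-strand breaks and stalled forks, and Chek1 and Chek2 carry the signal to the cell cycle. Atm had 48.9 and 54.9 CPM in PARP1 WT, 53.9 and 51.5 in PARP1CKO, 51.2 and 47.9 in the PARP2 controls and 49.4 and 52.1 in PARP2CKO. Chek1 had 16.7 and 16.1 CPM in PARP1 WT, 15.5 and 14.4 in PARP1CKO, 14.4 and 14.4 in the PARP2 controls and 14.4 and 13.8 in PARP2CKO. Both PARP1 WT libraries were thus above the other 6 for Chek1, whose log2 fold change in PARP1CKO was -0.14 (95% interval -0.29 to 0.01). H2afx, the histone variant that ATM phosphorylates beside a break, had 28.7 and 35.9 CPM in PARP1 WT, 32.4 and 30.8 in PARP1CKO, 31.6 and 31.8 in the PARP2 controls and 33.3 and 31.1 in PARP2CKO. The PARP1 WT libraries of H2afx lay at both ends of its range, and its log2 fold change of -0.04 in PARP1CKO became -0.19 without PARP1 WT replicate 1 and 0.13 without PARP1 WT replicate 2. Rnf168, a ubiquitin ligase that marks chromatin around a break, had 30.8 and 34.3 CPM in PARP1 WT, 29.1 and 31.7 in PARP1CKO, 33.4 and 30.4 in the PARP2 controls and 29.9 and 30.6 in PARP2CKO. Rnf8, the ligase that acts before it, lay between 13.7 and 15.5 CPM and was lower per kilobase, with Rnf168 at 5.52 times its level. Atr lay between 32.8 and 35.7 CPM and Chek2 between 28.9 and 34.4 CPM. Atm was 3.44 times as abundant per kilobase as Atr and Chek2 3.23 times as abundant as Chek1. Mdc1, the adaptor that binds phosphorylated H2AX, lay between 96.7 and 112 CPM.

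Of the members that serve other repair routes, Msh6 of mismatch repair lay between 53.1 and 58.1 CPM, Xpc, the damage sensor of nucleotide excision repair, between 26.5 and 31.8 CPM, and the nuclease subunit Ercc1 between 13.1 and 16.0 CPM. Poli, the Y-family polymerase iota that copies past damaged bases, stood apart from all other members. It had 13.6 and 18.6 CPM in PARP1 WT, 8.47 and 7.83 in PARP1CKO, 9.79 and 8.52 in the PARP2 controls and 10.5 and 7.91 in PARP2CKO. Both PARP1 WT libraries were above the other 6, the lower of them at 1.30 times the highest of those 6, which lay between 7.83 and 10.5 CPM. Its highest library was 2.38 times its lowest, while no other member exceeded 1.38 times.

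**Figure D2:**
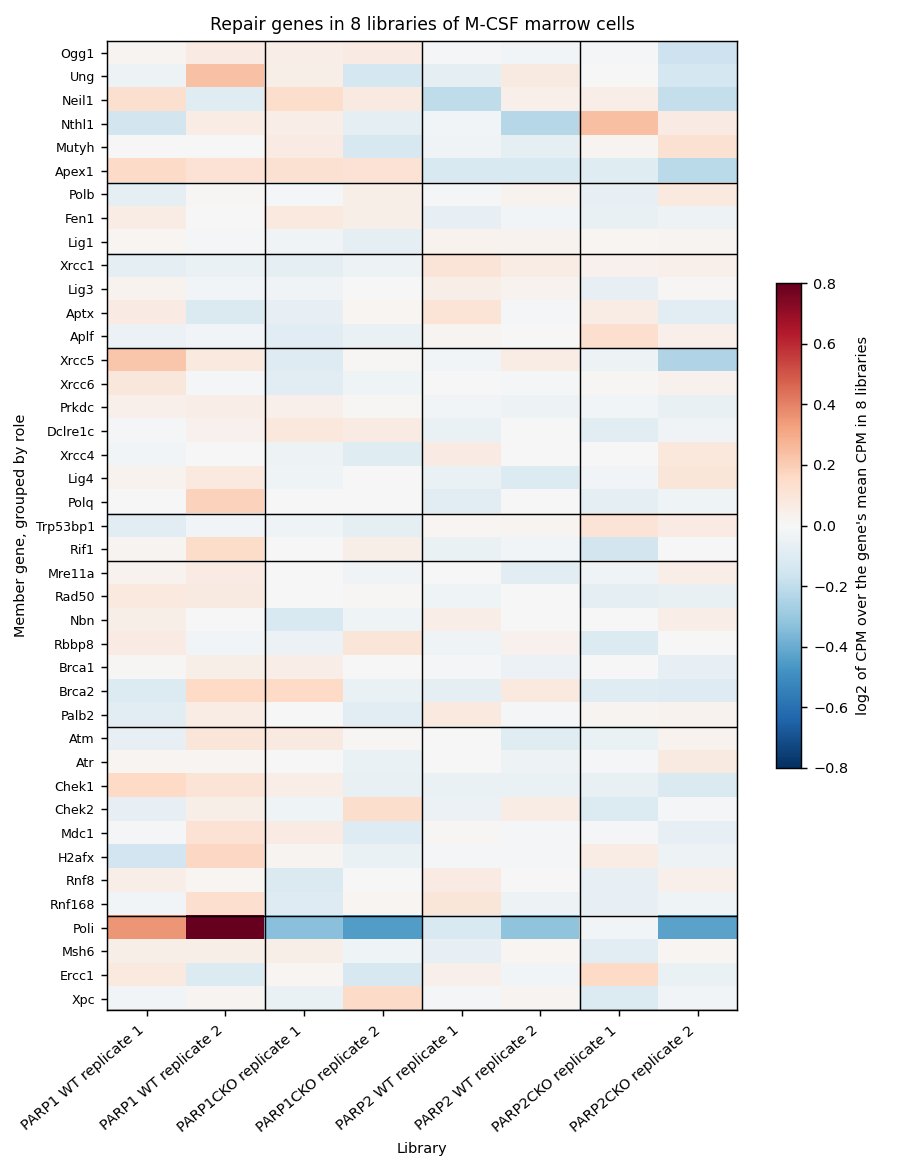
Colour shows the log2 of each member's CPM over its own mean in the 8 libraries, with members grouped by role in rows and libraries in columns. Poli in the 2 PARP1 WT libraries is the one strong departure, and the row of Apex1 divides the 4 libraries of the PARP1 line from the 4 of the PARP2 line.

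With PARP1 deleted, no member had an adjusted p under 0.05 by quasi-likelihood F test of edgeR, where 0.106% of all genes tested did. At an unadjusted p under 0.05 there was 1 member, Poli, against 11.3% of all genes, and in 3 of the 16 alternative fits Poli was also called, by DESeq2, by edgeR's likelihood-ratio test and with no filter on low counts. Poli was at -0.99 on the log2 scale in PARP1CKO, with a standard error of 0.171 and an edgeR quasi-likelihood adjusted p of 0.110, which lay between 7.27e-06 and 0.246 over the alternatives. Without PARP1 WT replicate 2 it was -0.74. After Poli the smallest unadjusted p-values belonged to Chek1, Xrcc6, Rad50 and Nbn, with log2 fold changes of -0.14, -0.10, -0.07 and -0.10, and the smallest adjusted p among these 4 was 0.468 from the same test. The libraries of PARP1CKO and PARP1 WT did not overlap for 14 members, or 34.1%, against 41.2% of all genes tested. Of the 14, 13 were lower in PARP1CKO, where over all genes 2771 were higher and 2668 lower. Summed over the members, PARP1 WT had 1361 and 1400 CPM. PARP1CKO had 1353 and 1341 CPM, and the PARP2 line between 1313 and 1332 CPM. Members were also mostly lower in PARP2 WT than in PARP1 WT, 28 against 13 higher, where over all genes 6549 were lower and 6648 higher. The proliferation markers were likewise lower in PARP1CKO than in PARP1 WT, with a sum between 2874 and 2923 CPM against 2966 to 3091 CPM. Their median log2 fold change was -0.06, with 3 of 20 lower and none higher at an unadjusted p under 0.05. Erythroid markers summed to between 6.26 and 8.01 CPM in PARP1CKO against 4.88 to 5.12 CPM in PARP1 WT. Their median log2 fold change was 0.59, with 1 of 4 higher and none lower at an unadjusted p under 0.05. The part of the proliferation and erythroid markers in the members' values was not tested.

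With PARP2 deleted, again no member passed the adjusted test, where 0.053% of all genes did. At an unadjusted p under 0.05 there was no member either, against 4.83% of all genes, and no alternative fit called one. The edgeR quasi-likelihood adjusted p was 0.954 or more for every member. The 5 members with the smallest unadjusted p were Nthl1, Lig4, Trp53bp1, Lig3 and Rad50, with log2 fold changes of 0.28, 0.12, 0.07, -0.07 and -0.05. The libraries did not overlap for 15 members, 6 higher and 9 lower in PARP2CKO, which is 36.6% of members against 37.2% of all genes, of which 2428 were higher and 2482 lower. The proliferation markers were below control here too, with a sum between 2769 and 2809 CPM in PARP2CKO against 2825 to 2860 CPM in its controls, a median log2 fold change of -0.02, and 1 of 20 lower and none higher at an unadjusted p under 0.05. Neutrophil markers summed to between 2650 and 3011 CPM in PARP2CKO against 3028 to 3259 CPM in its controls. Their median log2 fold change was -0.17, with 1 of 7 lower and none higher at an unadjusted p under 0.05. T and NK cell markers summed to between 3.34 and 4.08 CPM in PARP2CKO against 4.50 to 5.02 CPM in its controls. The part of these 3 marker lists was not tested.

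How small a change these libraries could have hidden differs between members. In PARP1CKO the 95% interval of the fold change lay within 1.25-fold in either direction for 36 of 41 members, and in PARP2CKO for 35, against 61.4% and 64.8% of all genes tested. The intervals are for single genes and were not widened for the number of genes. The members outside this range in PARP1CKO were Ung, Neil1, Nthl1, Xrcc5 and Poli, and in PARP2CKO Ung, Nthl1, Mutyh, Xrcc5, Brca2 and Poli. All of these but Brca2 and Poli lay under 10 CPM in every library. Within 1.5-fold lay 40 members in each deletion, all but Poli in PARP1CKO and all but Nthl1 in PARP2CKO. The median absolute log2 fold change of the members was 0.05 in PARP1CKO against 0.08 over all genes, and 0.04 in PARP2CKO against 0.06. The members had a median level of 31.2 CPM against 23.4 CPM over all genes tested.

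**Figure D3:**
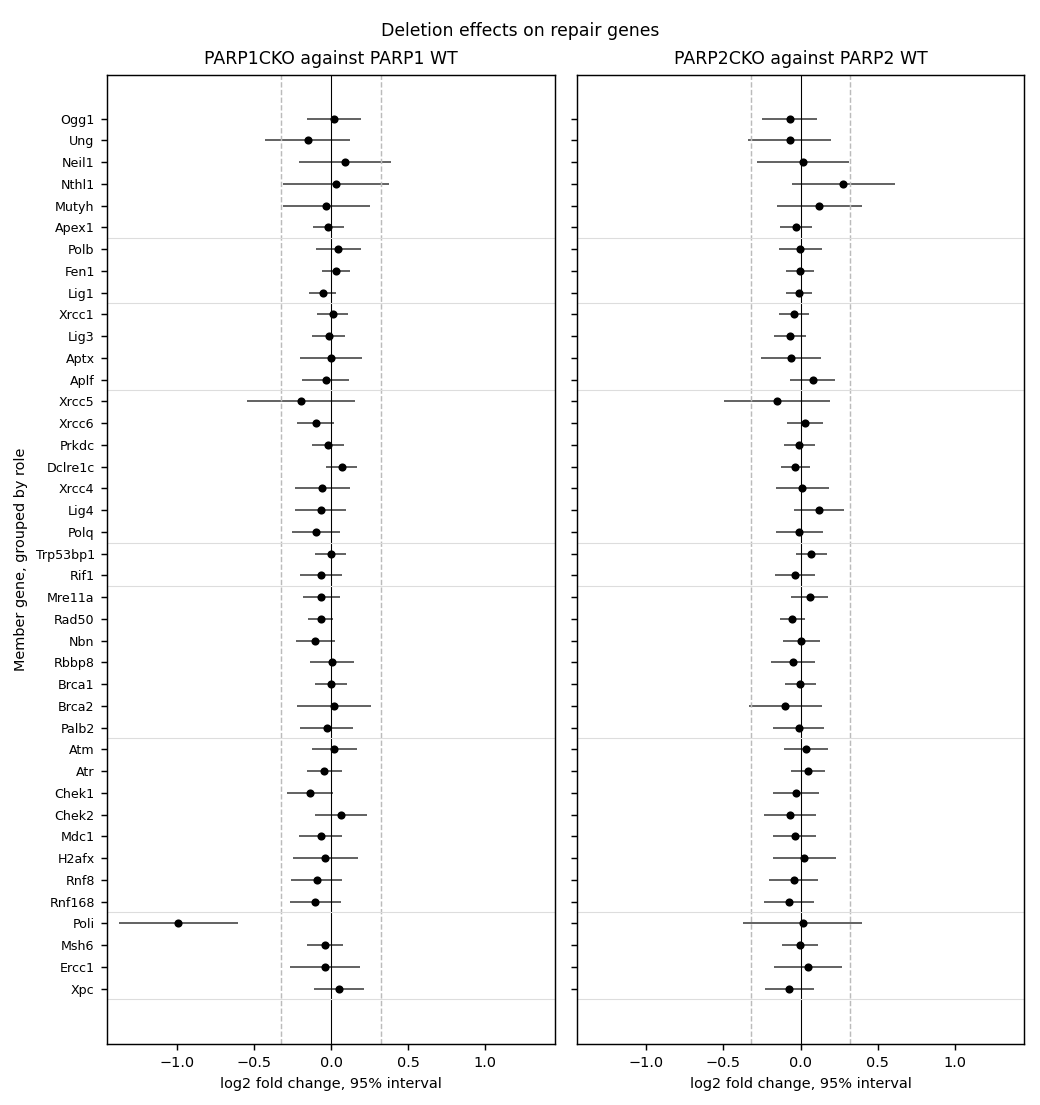
The log2 fold change of each member in PARP1CKO (left) and PARP2CKO (right) with its 95% interval, with members grouped by role. Dashed lines mark 1.25-fold in either direction, and 36 and 35 of 41 intervals lie inside them.

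The effects of the deletions were also set against each other in 1 model, as their difference and as their mean. For the difference (PARP2CKO effect minus PARP1CKO effect), no member was called, against 0.0152% of all genes. At an unadjusted p under 0.05 there was 1 member, Poli, against 7.69% of all genes, with a difference of 1.002 on the log2 scale (standard error 0.241, edgeR quasi-likelihood adjusted p of 0.384, between 0.0159 and 0.944 over the alternatives). This difference includes the PARP1 WT libraries, in which Poli was high. Lig4, Xrcc6, Dclre1c and Mre11a followed, with differences of 0.19, 0.13, -0.10 and 0.12, whose 95% intervals all included 0. For the mean of the effects, no member was called, against 0.106% of all genes, and Poli and Rad50 had an unadjusted p under 0.05, against 9.17% of all genes. The mean effect on Rad50 was -0.06 (95% interval -0.119 to -0.00176), and those on Chek1, Rnf168 and Xrcc5 were -0.08, -0.09 and -0.17, with intervals that included 0. In the mean of the effects, 38 of 41 intervals lay within 1.25-fold, against 72.6% of all genes tested. In the difference 26 of 41 did, against 47.3% of all genes tested.

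Of 72 other repair genes that are no members, such as Pcna and the Fanconi genes, all passed the filter and none was called in any of the 5 comparisons. With PARP1 deleted 2 had an unadjusted p under 0.05, 1 in each direction, against 11.3% of all genes. The higher was Ercc2, a helicase of nucleotide excision repair, with a log2 fold change of 0.14. With PARP2 deleted none did, against 4.83% of all genes. In the difference of the effects 3 did, all lower, against 7.69% of all genes. These were Rnf169, a ubiquitin-binding protein at breaks, at -0.22, the glycosylase Neil2 at -0.83 and Fam175a, of the BRCA1-A complex, at -0.28. In the mean of the effects 2 did, against 9.17% of all genes. They were Xpa, the damage verifier of nucleotide excision repair, at -0.15 and Polh, a bypass polymerase, at -0.14. The median absolute log2 fold change of the 72 genes was 0.06 in PARP1CKO and 0.04 in PARP2CKO, close to that of the members.

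The Cre-free mice of the lines were also compared, and here members did pass the test. Apex1 and Poli passed the adjusted test in PARP2 WT against PARP1 WT, 2 of 41 members against 3.16% of all genes tested, and both were lower in PARP2 WT. At an unadjusted p under 0.05 there were 5 members, against 18.9% of all genes: these 2, with Chek1 at a log2 fold change of -0.19, Rad50 at -0.09 and Xrcc1 at 0.15. The groups did not overlap for 21 members, or 51.2%, against 51.9% of all genes. Among the 72 other repair genes 13 had an unadjusted p under 0.05, 11 of them lower in PARP2 WT, among them Clspn, an adaptor for the kinase CHEK1, at -0.16 (edgeR quasi-likelihood adjusted p of 0.0931). The proliferation markers summed to 2966 and 3091 CPM in PARP1 WT and to 2825 and 2860 CPM in PARP2 WT, with a median log2 fold change of -0.09 over the 20 genes, 8 of them at an unadjusted p under 0.05. B cell markers summed to between 31.3 and 46.8 CPM in the 4 libraries of the PARP1 line and between 8.26 and 11.6 CPM in the 4 of the PARP2 line, and all 7 tested were called lower in PARP2 WT. Granulocyte progenitor markers summed to 275 and 311 CPM in PARP1 WT and to 359 and 403 CPM in PARP2 WT, and 2 of 5 were called higher. The myeloid markers summed to between 10103 and 10971 CPM in PARP1 WT and between 14381 and 15526 CPM in PARP2 WT, a difference made mostly by Lyz2, since the median log2 fold change of the 8 genes was 0.09, and 1 of 8 was called, higher. Of 7 neutrophil markers 1 was called lower, and of 4 erythroid markers tested 1 was called lower, with sums between 4.88 and 5.12 CPM in PARP1 WT and between 3.08 and 3.74 CPM in PARP2 WT. The part of dividing cells or of these cell types in these differences was not tested.

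**Figure D4:**
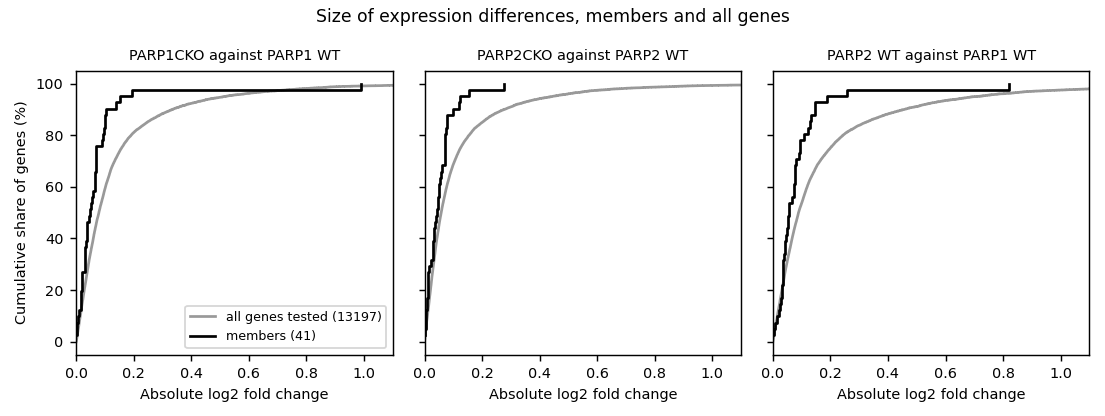
Cumulative share of genes by absolute log2 fold change for the 41 members (black) and all 13197 genes tested (grey) in 3 panels for PARP1CKO, for PARP2CKO (each against its own controls) and for the Cre-free groups, PARP2 WT over PARP1 WT. The last steps of the members' lines are Poli at 0.99, Nthl1 at 0.28 and Poli at 0.82.

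Apex1 had 83.5 and 81.3 CPM in PARP1 WT, 81.6 and 81.2 in PARP1CKO, 69.0 and 68.9 in the PARP2 controls and 70.3 and 64.8 in PARP2CKO. All 4 libraries of the PARP1 line were above all 4 of the PARP2 line, and within each line deletion and control overlapped. Between the Cre-free groups the difference was -0.26 on the log2 scale with a standard error of 0.0456, and its edgeR quasi-likelihood adjusted p of 0.0231 lay between 0.000419 and 0.142 over the alternatives. The call was lost when any of the 4 Cre-free libraries was left out, with a log2 fold change between -0.28 and -0.24. The deletions themselves came with -0.02 (95% interval -0.12 to 0.09) in PARP1CKO and -0.03 (-0.13 to 0.08) in PARP2CKO. In GENCODE M21 on GRCm38 (mm10), Apex1 lies on the plus strand of chromosome 14 from 50924968 to 50927139, and Parp2, the gene floxed in the PARP2 line, ends 104 kb before it. Of the exon bases of Apex1, 61.7% are also annotated to Pip4p1 (Tmem55b in the count table) on the opposite strand, and whether the counting used the strand is not given in the sources used here. The log2 fold change of Tmem55b between the lines was 0.03.

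The neighbours of Apex1 were then examined, a choice made after its values were seen. Of 18 other tested genes that start within 1 Mb, 7 were called in PARP2 WT against PARP1 WT, while among the 849 neighbours counted in the same way around the 39 members other than Apex1 and Poli there were 26, where a gene near several members counts for each. Pnp, a purine nucleoside phosphorylase that starts 6.11 kb further on, was at -0.54 on the log2 scale, and the secreted ribonucleases Ang and Rnase6 were at -1.52 and -1.21. Parp2, Rnase2a, Mettl17 and Slc39a2 were called in the other direction, at 0.27, 4.54, 0.77 and 2.05. Rnase2a and Slc39a2 were near the floor, with means of 0.0821 and 0.259 CPM in the PARP1 line and 2.03 and 0.931 CPM in the PARP2 line. Osgep, which is read from the opposite strand and starts beside Apex1, had a log2 fold change of -0.20 (edgeR quasi-likelihood adjusted p of 0.150). None of these genes but Parp2 is the target of a deletion, and none of the 18 was called with PARP1 deleted.

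The 55 bases between the RefSeq starts of Osgep and Apex1, at chr14:50924894-50924948 of GRCm38.p6 on the plus strand, are shown because both genes are read outward from them. The capitals mark a CCAAT box and an E-box, CACGTG.
Apex1 and Osgep: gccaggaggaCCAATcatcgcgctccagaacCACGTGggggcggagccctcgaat
Of the 32 members with an entry in the RefSeq promoter table, which gives 300 bases around each start, most of them before it, 5 had CACGTG, on either strand, which is 15.6% against 11.7% of the 9800 tested genes with an entry. The letters CCAAT were found in 18 of 32 members, 56.2%, against 42.9% of tested genes.

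Poli lies on the minus strand of chromosome 18 from 70508680 to 70530620. Between the Cre-free groups it was at -0.82 on the log2 scale with a standard error of 0.167, and its edgeR quasi-likelihood adjusted p of 0.0367 lay between 0.000130 and 0.196 over the alternatives. With the replicate number as a block the adjusted p from the same edgeR test was 0.0607, and the call was also lost without PARP1 WT replicate 2, at -0.57, and without either PARP2 WT library, at -0.93 and -0.73. The neighbours of Poli were looked at after its values were seen. Mbd2, a reader of methylated DNA whose gene starts 59.5 kb away, had 173 and 218 CPM in PARP1 WT, 110 and 103 in PARP1CKO, 107 and 110 in the PARP2 controls and 108 and 112 in PARP2CKO. It was called in PARP1CKO against PARP1 WT at -0.88 (edgeR quasi-likelihood adjusted p of 0.0134) and in PARP2 WT against PARP1 WT at -0.85 (adjusted p = 0.00292). Stard6, 4930503L19Rik and Rab27b, the other tested genes within 1 Mb, had log2 fold changes of -0.98, -0.79 and -0.89 in PARP1CKO and -0.91, -0.87 and -0.90 in PARP2 WT, each against PARP1 WT. Of these 3, 4930503L19Rik passed the test, in PARP2 WT alone, with an edgeR quasi-likelihood adjusted p of 0.0103. In all 5 genes both PARP1 WT libraries were above the other 6 libraries, and PARP1 WT replicate 2 was above replicate 1. The lower PARP1 WT library was between 1.17 and 1.55 times the highest of the other 6. Both PARP1 WT libraries were also highest for Ptpn2, Seh1l and Me2, farther off on the chromosome, but by 1.03, 1.03 and 1.01 times. The share of all genes with this order was not counted. The next tested genes with a mean over 1 CPM on either side of the 5 genes, Tcf4 and Mex3c, both over 1 Mb away, were at 0.00 and -0.02 in PARP1CKO. In PARP2 WT against PARP1 WT Tcf4 was at -0.13 and Mex3c at -0.02, and neither passed the adjusted test. The level of Poli in PARP1CKO was thus close to that of both groups of the PARP2 line, and the group that stood apart was PARP1 WT. The values of Poli in PARP1CKO, in the difference and the mean of the effects, and between the lines all rest on these PARP1 WT libraries. Whether the PARP1 WT mice differed over this stretch of the chromosome, for example in DNA copy number, was not tested, and such a difference cannot be told apart here from an effect of the deletion.

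**Figure D5:**
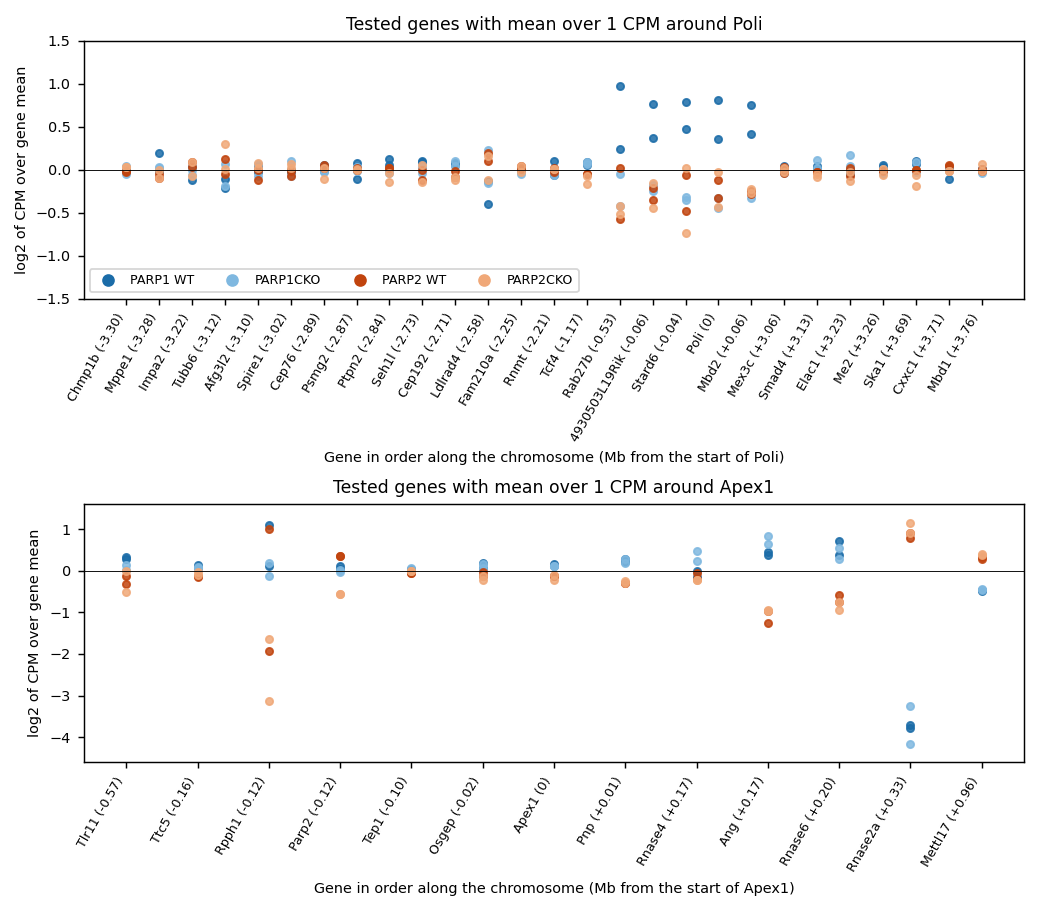
Tested genes with a mean over 1 CPM in order along the chromosome around Poli (top) and Apex1 (bottom), as log2 of CPM over the gene's mean, with 1 point per library coloured by group and the distance to the named gene in Mb on the axis. Around Poli 5 neighbouring genes, Poli among them, are high in both PARP1 WT libraries, and around Apex1 several genes divide the PARP1 line from the PARP2 line.

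Apex1 was not the only member to divide the lines, though the others did so without passing the test. The ranges of the 4 libraries of each line did not overlap for 10 of 41 members, 24.4%, against 20.4% of all genes tested. Ogg1, Apex1, Fen1, Prkdc, Polq, Rad50 and Brca1 were higher in the PARP1 line, and Xrcc1, Aplf and Trp53bp1 in the PARP2 line. This split was made after the values were seen.

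Many repair genes are switched on with DNA replication by the E2F factors, and the promoters of the members were searched for the E2F letters TTTCCCGC on both strands. They were present in 5 of 32 members, 15.6%, against 2.37% of the tested genes with an entry. A match of these letters is a description and shows no binding. The stretches are shown because they are what these 5 genes, which serve end joining, recombination, damage signalling and mismatch repair, have in common by this search. Capitals mark the searched letters, and each stretch is written in the direction in which they read.
Xrcc6, chr15:82016315-82016338, minus strand: cactcgcaTTTCCCGCttccaccc
Brca2, chr5:150522445-150522468, minus strand: tgtgtctgTTTCCCGCtgtggcct
Chek2, chr5:110839823-110839846, minus strand: cgtcttggTTTCCCGCggctaatc
Mdc1, chr17:35841474-35841497, plus strand: tcagcctgTTTCCCGCcggtagcc
Msh6, chr17:87975057-87975080, plus strand: ctcccgacTTTCCCGCcagcggcg
The related letters TTTCGCGC were found in Nthl1 and Lig1, and TTTGGCGC in no member with an entry, against 0.765% and 1.14% of tested genes. The ETS letters CCGGAAG were found in 12 of 32 members, among them Ogg1, Aptx, Lig4, Polq, Atm and Atr, which is 37.5% against 19.8% of tested genes. GC boxes, GGGCGG, were about as frequent in members as in tested genes, 68.8% against 67.5%, and TATAAA was present in 12.5% against 8.65%. The log2 fold changes of Xrcc6, Brca2, Chek2, Mdc1 and Msh6 were -0.10, 0.02, 0.06, -0.07 and -0.04 in PARP1CKO and 0.03, -0.10, -0.07, -0.04 and -0.01 in PARP2CKO, without a shared direction.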

How the data were processed

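Total RNA libraries were made with a strand-specific kit and sequenced as single-end reads. Per the labels and the study's methods, the authors checked reads with FastQC 0.11.2, mapped them to mm10 with TopHat2 2.0.12, marked duplicates with Picard 1.127 and deposited raw counts per gene from featureCounts (Subread). The annotation, the strand setting and the use of marked duplicates are not given in the sources used here. The 8 count columns each matched 1 sample. Of 24062 genes, 13197 passed edgeR's filterByExpr. All 8 libraries entered 1 edgeR 4.0.16 quasi-likelihood model (R 4.3.3) with TMM factors (0.965 to 1.03) and a mean per group, with Benjamini-Hochberg adjustment over all genes tested and a threshold of 0.05. Standard errors are the absolute log2 fold change over the root of the F statistic, and 95% intervals use the model's degrees of freedom. Replicates differed beyond sampling noise in every group, and each counted once. The study calls them biological duplicates. Since 2 against 2 libraries can give no two-sided exact permutation p under 0.333, p-values come from the model.

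The settings changed in turn were the scaling (size factors of DESeq2, or none beyond library size), the test (DESeq2 1.42.0 or edgeR's likelihood-ratio test), the 4 libraries of a comparison, no filter, 1 CPM in 2 libraries, the replicate number as a block and each library left out. On 3 simulated tables of PARP1CKO against PARP1 WT, 64.7%, 80.6% and 92.9% of planted changes of 0.5, 1 and 2 log2 units were called. Of the calls 8.46% were false, a share above the threshold of 0.05. The simulated tables gave 520 calls together, against 14 in the real comparison. More calls loosen the Benjamini-Hochberg cutoff, so these shares may overstate what would be called in the real data. The members and lists were chosen with earlier results of these data known. Values in every library were given for the factors drawn to poly-ADP-ribose, for leading members of each role, for every called member, and for the 5 members with the smallest unadjusted p in each deletion and in the difference and the mean of the effects. The other members are given by range. Some of the other repair genes are not reported here by name. Gene positions and exon lengths are from GENCODE M21 (GRCm38), in which all 41 members were found, and promoter sequences are from RefSeq (GRCm38.p6). Of the 41 members, 21 share annotated exon bases with another gene, 7 of them over 10% of their own: Apex1 and Fen1 over most of their length, and Lig3, Trp53bp1, Rnf8, Ogg1 and H2afx over less. Depending on the counting settings, their counts may hold reads of the other gene or lack reads that overlap both. Figures were drawn with matplotlib 3.10.9.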

Additional observations from a re-analysis of the deposited data

How the results depend on the processing

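Of 41 members, none was called in PARP2CKO against PARP2 WT in any alternative or with any library left out. In PARP1CKO against PARP1 WT, in the difference and in the mean of the effects, the count went from 0 to 1 with DESeq2, with the likelihood-ratio test and with no filter on low counts, and Poli was the 1 gene each time, with adjusted p of 7.27e-06, 3.08e-05 and 0.000718 in PARP1CKO. With each library left out these counts stayed at 0. In PARP2 WT against PARP1 WT the count of 2 went to 1 (Apex1) with the replicate block, and lay between 0 and 2 with each library left out; it was 0 without PARP1 WT replicate 2, without PARP2 WT replicate 1 and without PARP2 WT replicate 2, and 1 (Poli) without PARP1 WT replicate 1. The cause was not tested. The deviations of same-numbered libraries correlated at -0.133 in the PARP1 line and 0.147 in the PARP2 line, and between -0.0763 and 0.0606 across lines, so the numbers were not taken as pairs, though some pairing within the PARP2 line is possible. The calls over all genes tested depended more on the fit: 14 in PARP1CKO became 86 with DESeq2 and 146 with the likelihood-ratio test, 7 in PARP2CKO became 27 and 39, 2 in the difference became 46 and 72, 14 in the mean became 62 and 87 (6 with the replicate block), and 417 between the lines became 551 and 910. With no filter they were 101, 26, 61, 71 and 872. With a library left out they lay between 1 and 34, 4 and 19, 1 and 16, 3 and 25, and 85 and 566. Of 932 refitted values of the named members, 49 changed sign, none of them with a log2 fold change over 0.726 standard errors in the main fit. Depth did not limit the members evenly: Xrcc5 and Nthl1, with 89 to 198 counts a library, had standard errors near 0.15 on the log2 scale, against 0.0383 for Lig1 in PARP1CKO.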
